A study of Mus musculus with 7 samples.

Results

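The genes examined here were 484 named genes of the Chr 6 linkage interval, from 31.9 to 86.85 Mb, out of 25793 named genes on the array. They were taken by the start position in the deposited annotation. Gene families of the immune and exocrine loci (symbols starting with Igk, Trb, Prss, Try and Reg) were left out. So were mitochondrial ribosomal proteins (Mrp) and subunits of the respiratory chain (Nduf, Cox, Uqcr and Atp5). A further 6 single genes (Cd8a, Cd8b1, Gpnmb, Gars, Mthfd2 and Pdia4) were left out too. These left-out loci held 49 of the 533 named genes of the interval. A gene with several probe sets, as 7 members had, was represented by its brightest one. Islets of NOD_Idd22 mice were compared with islets of NOD-Rag1 mice, both 10 to 12 weeks old. The NOD_Idd22 strain, NOD.ALRc8(D8Mit293-D8Mit137), is NOD with a segment of Chr 8 from the ALR strain and intact Rag1, and 4 pools were measured. The NOD-Rag1 strain carries the NOD background with a knockout of Rag1, needed for antigen receptor rearrangement and so for mature T and B cells, and 3 pools were measured. Each pool held about 200 islets of 2 mice, and mouse Gene 2.0 ST arrays gave 1 log2 expression value per probe set and pool, made by RMA. The ALR segment and the Rag1 genotype differed between the same pools, so their parts in a difference cannot be told apart. The comparison asks which genes under a linkage to alloxan-induced diabetes were expressed differently in islets. The paper describes an interaction of this linkage with the locus on the ALR segment. It was not detected in all mice of the cross together, and appeared once they were divided by mitochondrial genotype. As labelled, the congenic strain has ALR sequence on Chr 8, so no allele difference on Chr 6 is stated for these pools.

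Alloxan enters the insulin-producing beta cell through a glucose transporter and destroys it with reactive oxygen species, and a linkage interval is a stretch of chromosome inherited with the trait that usually holds many genes unrelated to it. This stretch of mouse Chr 6 holds the HOXA cluster, the GIMAP cluster (GTPases of immunity-associated proteins, small membrane-bound GTPases known for lymphocyte survival), peptide receptors of endocrine cells, taste, olfactory and vomeronasal receptor genes, and single enzymes of mitochondria and redox metabolism. Messenger RNA of whole islets also carries RNA of vessels, exocrine cells and leukocytes that come with them.

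Of the 28 genes that met the fold threshold described below, 21 had a promoter in the RefSeq tables (GRCm38.p6). The 250 bases before the start are given for 4 of them, namely the 3 GIMAP genes with the lowest adjusted p and Gadd45a, the lower gene with the lowest adjusted p when single pools were left out. Each reads 5′ to 3′ on the gene's own strand. Capitals mark matches on either strand. The letters searched were AGGAAG (a form of the ETS motif) and TGTGGT (the RUNX core). The others were TATAAA (the TATA box), CCAAT (the CCAAT box), GGGCGG (the GC box) and ATGCAAAT (the octamer). Gimap4 lies on the plus strand (chr6:48684328-48684577), Gimap6 on the minus strand (chr6:48708245-48708494), Gimap1 on the plus strand (chr6:48738797-48739046) and Gadd45a on the minus strand (chr6:67037408-67037657).
Gimap4: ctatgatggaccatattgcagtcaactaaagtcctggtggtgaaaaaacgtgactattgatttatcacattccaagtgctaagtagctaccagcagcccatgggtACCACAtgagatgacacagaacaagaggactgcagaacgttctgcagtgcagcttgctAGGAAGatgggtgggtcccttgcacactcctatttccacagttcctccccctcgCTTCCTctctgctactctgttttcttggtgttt
Gimap6: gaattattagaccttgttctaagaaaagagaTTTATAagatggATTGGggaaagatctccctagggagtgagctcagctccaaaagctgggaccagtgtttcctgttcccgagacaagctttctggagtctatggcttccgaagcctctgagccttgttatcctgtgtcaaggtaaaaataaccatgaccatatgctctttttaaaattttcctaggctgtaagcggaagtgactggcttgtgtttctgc
Gimap1: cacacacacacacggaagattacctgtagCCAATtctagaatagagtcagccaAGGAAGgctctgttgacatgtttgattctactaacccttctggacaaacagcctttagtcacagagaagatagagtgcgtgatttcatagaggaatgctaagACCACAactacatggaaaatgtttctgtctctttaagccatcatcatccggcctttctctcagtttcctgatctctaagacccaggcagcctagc
Gadd45a: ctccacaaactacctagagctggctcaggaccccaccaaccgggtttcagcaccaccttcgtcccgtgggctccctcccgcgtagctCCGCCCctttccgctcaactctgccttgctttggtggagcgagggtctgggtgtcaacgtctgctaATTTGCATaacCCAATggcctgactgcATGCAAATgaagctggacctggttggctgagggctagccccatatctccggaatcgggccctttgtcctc
AGGAAG was in 6 of the 8 GIMAP windows (all but those of Gimap6 and Gimap8). It was in 29.2% of 27025 promoter windows of this length and in 95 of the 357 found for interval genes. Other forms of the ETS motif were not searched, so a window without AGGAAG may still hold one. The RUNX core was in 3 GIMAP windows, those of Gimap4, Gimap7 and Gimap1, against 14.2% of all windows. The Gadd45a window held the octamer in both orientations, 97 and 70 bases before the start, with a CCAAT box between them, and 1.61% of all windows held the octamer. These matches describe letters only, and binding was not measured.

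Facts of the arrays bear on all values. By the lower quartile of their values the arrays fell into 2 sets, one with NOD_Idd22 replicate 1 and NOD-Rag1 replicates 2 and 3 (2.491 to 2.505), the other with the remaining 4 pools (2.645 to 2.684). In NOD-Rag1 replicate 1, Xist measured 2.56 where the other pools had 9.69 to 10.28, and Y-linked Ddx3y 6.25 where they had 1.99 to 2.08, the pattern of male RNA, though the labels give no sex. That pool is the only NOD-Rag1 pool of the second set, so strain and this pattern cannot be told apart there. The first set has a single NOD_Idd22 pool. A difference within either set therefore rests on a single pool of a strain. Of the 9 T cell markers 8 were higher in NOD_Idd22 pools at the fold threshold described below, of the 8 B cell markers 7, of the 10 acinar markers 9, of the 10 endothelial markers 9 and of the 9 macrophage markers 4. Of the 7 fibroblast and stellate markers 2 were higher, and of the 5 duct markers 1 was lower and none higher. Among all named genes 3.94% were higher and 2.18% lower. Of the 10 beta cell and 4 alpha cell markers none met that threshold, and the mean level of the beta cell markers was 9.49 to 10.50 in NOD_Idd22 pools and 9.73 to 10.21 in NOD-Rag1 pools. In bulk islets, fewer cells of a type and less RNA per cell cannot be told apart. Nothing in the labels says how the mice of different pools were related, and p-values measure the spread between pools only.

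Across the interval, expression in NOD_Idd22 islets was about as often above as below that in NOD-Rag1 islets. The median log2 fold change (NOD_Idd22 minus NOD-Rag1) of the 484 genes was 0.01, and 0.01 over all named genes. It was positive for 248 genes (51.2%, background 51.7%), where background is the share among all 25793 named genes. The middle part of the distribution, between the quartiles, ran from -0.12 to 0.13, against -0.13 to 0.14 over all named genes. A difference under 0.25 in size was found for 361 genes (74.6%, background 73.1%), and a difference over 1 for 8 genes (1.65%, background 2.35%), each of the 8 higher. By limma with Benjamini-Hochberg adjustment over all probe sets, 0 of the 484 genes passed an adjusted p of 0.05, where 0.151% of all named genes passed. At an unadjusted p under 0.05 there were 51 (10.5%, background 10.4%), and the equal-variance test gave 0 after the same adjustment. With limma, 3 genes passed the adjusted p without NOD_Idd22 replicate 1 (Gimap4, Gadd45a and Vamp5) and 3 without NOD_Idd22 replicate 3 (Gimap1, Gimap4 and Gimap6).

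At the threshold of the study's methods, which asks for a log2 fold change beyond 0.5 in size and an unadjusted p below 0.05, 28 interval genes were called (5.79%, background 6.11%). Of these 17 were higher in NOD_Idd22 islets (3.51%, background 3.94%) and 11 were lower (2.27%, background 2.18%). These shares were near those of all named genes. In the rest of the text, "higher" and "lower" of a single gene refer to this threshold, and none of these genes passed the adjusted p in the fit of all 7 pools. Centring each array on its median, which shifts every difference by 0.12, gave 11 higher and 19 lower, so the majority by direction turns with the scaling. Beside the 28 of 484 among the genes kept, the 49 left-out loci had 27 called genes (55.1%), 26 of them higher, a contrast that was not tested. The pools of the strains did not overlap for 27 genes with NOD_Idd22 above (5.58%, background 4.55%) and for 13 with NOD_Idd22 below (2.69%, background 3.34%). Among the called genes, the pools did not overlap for 14 of the higher and 5 of the lower. Calls and overlap rest on the same values, so these counts describe the called genes and are no further support for them.

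The called genes were spread over the interval. In stretches of 10 Mb from the proximal bound, of which the last was shorter, 102, 106, 106, 46, 32 and 92 genes were measured and 4, 10, 4, 3, 3 and 4 were called. The median log2 fold change of each stretch lay between -0.03 and 0.02. The second stretch held 10 of the 28 called genes, 6 of them in the GIMAP cluster. The share called was 9.43% there and 9.38% in the fifth stretch, and 3.77% was the lowest share. Among all named genes it was 6.11%. At the bounds, the nearest genes inside were 1700012A03Rik and Gm13850 proximally (0.28 and -0.20) and Anxa4 and Aak1 distally (-0.13 and -0.07), and the nearest outside were Gm13849 (-0.01) and Nfu1 (-0.41), none of them called.

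**Figure D1:**
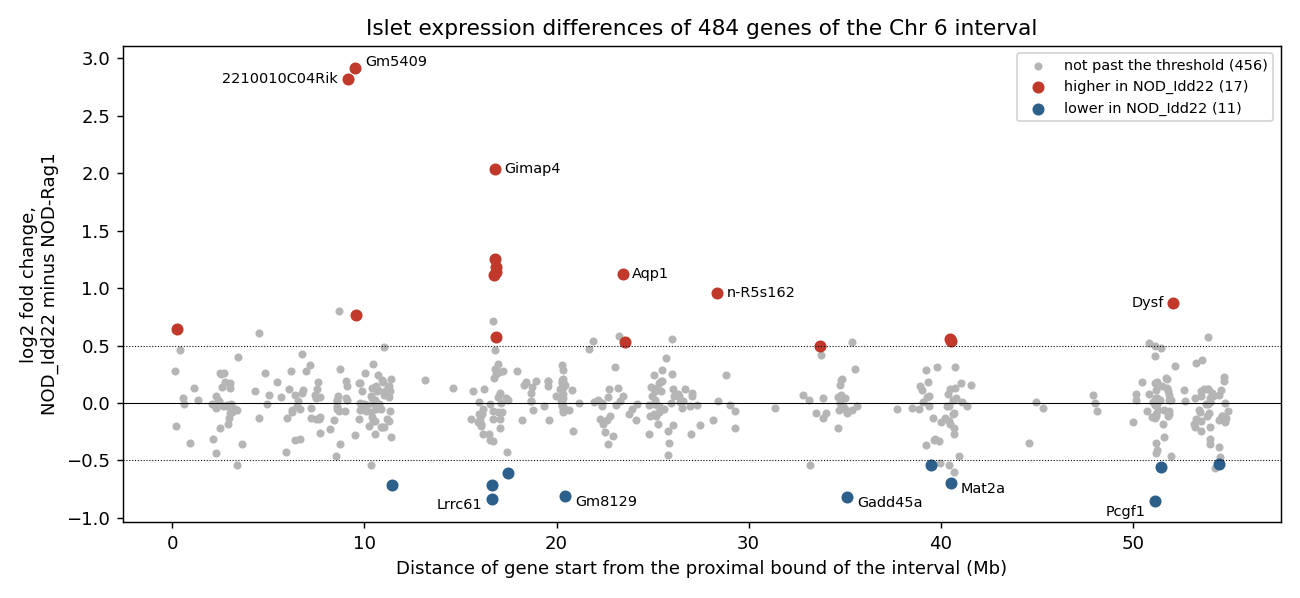
Log2 fold change (NOD_Idd22 minus NOD-Rag1, vertical axis) of the 484 interval genes against the distance of the gene start from the proximal bound in Mb (horizontal axis). Each point is a gene, with 17 higher in red, 11 lower in blue and the others in grey, and dotted lines stand at 0.5 and -0.5. The GIMAP genes form the column of red points near 17 Mb, and most points lie between the dotted lines.

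The GIMAP family was the group with the most called members. All 8 members, which lie side by side from 48647234 to 48770853, had positive log2 fold changes, with a median of 1.13 against 0.01 over all named genes. Of the 8, 6 were higher and 2 were not called, where 3.94% of all named genes were higher. Gimap4, a GTPase of T cells (48684549 to 48692062), was 5.75, 6.82, 5.82 and 6.69 in the 4 NOD_Idd22 pools and 4.10, 4.13 and 4.47 in the 3 NOD-Rag1 pools. Every NOD_Idd22 pool was above every NOD-Rag1 pool by more than a log2 unit. The difference was 2.04 (standard error 0.30, 4.11-fold, adjusted p = 0.0816 from limma, exact two-sided permutation p = 0.0286, the smallest that 35 splits can give). With single pools left out the adjusted p from limma ran from 0.0466 (without NOD_Idd22 replicate 1) to 0.404.

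Gimap6 (48701582 to 48708244) was 4.77, 5.20, 4.32 and 4.85 in NOD_Idd22 pools and 3.48, 3.77 and 3.35 in NOD-Rag1 pools, without overlap. Its difference was 1.25 (standard error 0.21, adjusted p = 0.107 from limma). NOD_Idd22 replicate 3 was the lowest of its strain. Gimap1 (48739047 to 48743795), required in mice for the survival of mature lymphocytes, was 4.92, 4.72, 4.36 and 5.16 in NOD_Idd22 pools and 3.64, 3.66 and 3.52 in NOD-Rag1 pools. Here too the third NOD_Idd22 pool was the lowest of its strain and lay above every NOD-Rag1 pool. The Gimap1 difference was 1.18 (standard error 0.18, adjusted p = 0.0971 from limma). Without that pool the adjusted p-values of Gimap6 and Gimap1 from limma were 0.0288 and 0.0163, the lowest of those with single pools left out, which ran up to 0.483 and 0.460. Gimap5, whose loss in rats causes lymphopenia (48746197 to 48754210), was 3.99, 3.76, 4.05 and 4.16 in NOD_Idd22 pools and 3.62, 3.41 and 3.21 in NOD-Rag1 pools. The pools did not overlap, and the difference of 0.57 was the smallest of the called members.

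Gimap8, at the proximal end of the cluster, was 4.85, 5.67, 4.67 and 5.57 in NOD_Idd22 pools and 3.93, 4.39 and 3.93 in NOD-Rag1 pools, a difference of 1.11. Gimap3, at the distal end and a close relative of Gimap5, was 5.58, 5.42, 4.83 and 5.91 in NOD_Idd22 pools and 4.67, 3.90 and 4.30 in NOD-Rag1 pools, a difference of 1.14. Both had exact two-sided permutation p-values of 0.0571 with all NOD_Idd22 pools above all NOD-Rag1 pools. Gimap7 and Gimap9 were not called, at 0.30 and 0.46. Gimap9 was 3.31 in NOD_Idd22 replicate 2 and 1.96 to 2.20 in the other pools of that strain, against 1.83 to 1.96 in NOD-Rag1 pools, so that its mean rested on 1 pool.

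**Figure D2:**
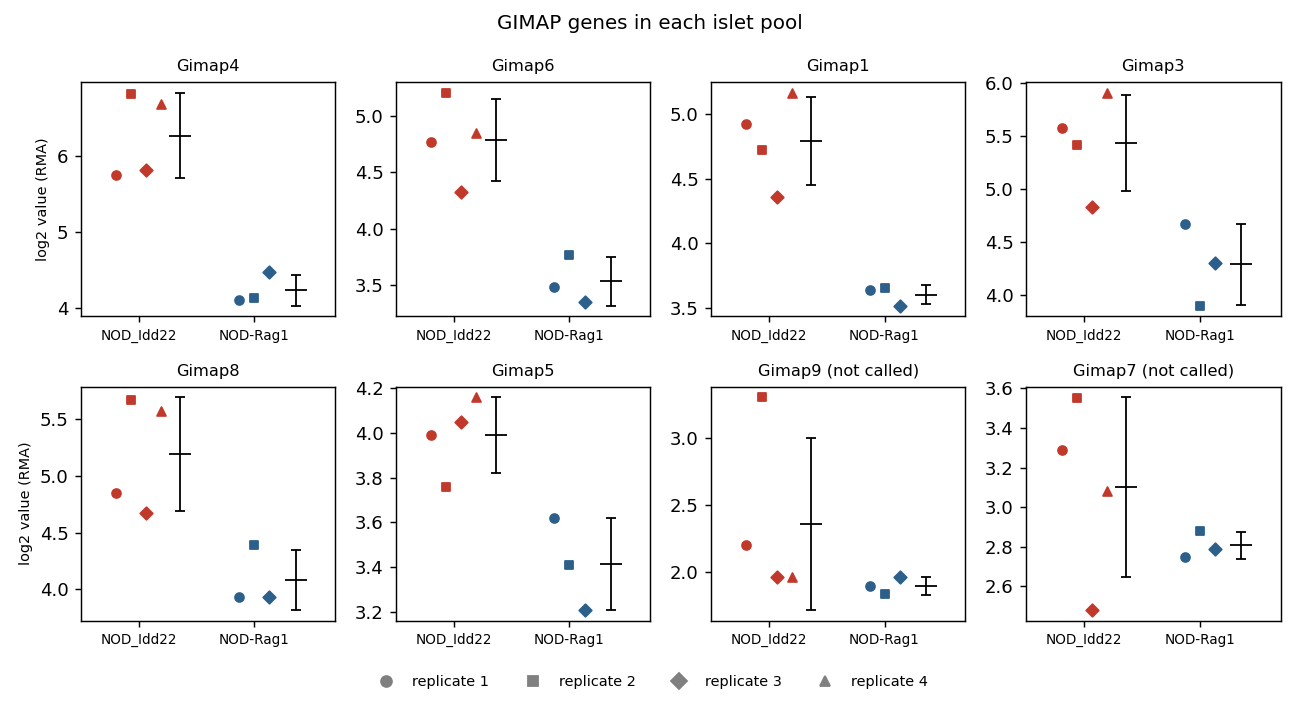
Log2 values of the 8 GIMAP genes in each pool, NOD_Idd22 in red on the left and NOD-Rag1 in blue on the right, with a symbol per replicate number and the mean and SD as black bars, each panel on its own axis. In 6 panels the NOD_Idd22 points lie above all NOD-Rag1 points, and in the panels of Gimap9 and Gimap7 they overlap.

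The GIMAP cluster's mean level was 4.42, 4.81, 4.06 and 4.67 in the NOD_Idd22 pools and 3.51, 3.50 and 3.44 in the NOD-Rag1 pools. The mean level of the 9 T cell markers was 5.55, 5.92, 4.73 and 5.71 in NOD_Idd22 pools and 3.94, 3.61 and 3.71 in NOD-Rag1 pools, with a median log2 fold change of 1.46. Both lists put the 4 NOD_Idd22 pools in the same order, with replicate 2 highest and replicate 3 lowest. In the NOD-Rag1 pools their orders differed, as replicate 2 was lowest for the T cell markers and replicate 3 for the GIMAP genes. The 8 B cell markers were 4.48, 5.49, 4.28 and 5.61 in NOD_Idd22 pools and 3.91, 3.51 and 3.59 in NOD-Rag1 pools, and the 10 endothelial markers 6.71, 7.14, 7.31 and 7.18 against 5.37, 6.27 and 5.40. NOD_Idd22 replicate 3, the pool lowest in GIMAP level, was also the lowest of its strain in B cell, macrophage and fibroblast markers. It was the highest of its strain in endothelial, beta cell and alpha cell markers. The log2 fold changes of the T cell markers ran from 0.41 (Cd247, not called) to 4.37 (Cd3g). Cd3g was 7.60, 7.55, 6.02 and 7.73 in NOD_Idd22 pools and 2.99, 2.61 and 2.97 in NOD-Rag1 pools. Mature T cells need Rag1, so the design sets the strains apart in such a marker. The B cell and endothelial means given above also did not overlap between the strains. The part of these cell types in the GIMAP difference was not tested. The median of the family was 1.12 without NOD_Idd22 replicate 1, 1.11 without NOD-Rag1 replicate 1, and 0.95 and 0.91 within the first and the second set of arrays.

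Of 11 other leukocyte genes in the interval 0 were higher or lower, with a median of 0.21. At the background of 6.11%, a list of this size need not hold a call. Clec5a, a myeloid receptor, was 4.71, 4.35, 2.91 and 3.57 in NOD_Idd22 pools and 2.93, 2.89 and 3.46 in NOD-Rag1 pools, a difference of 0.80 with overlap (standard error 0.42, adjusted p = 0.584 from limma). Dok1, an adaptor of immune receptors, and Nod1, an intracellular sensor of bacterial wall fragments, had log2 fold changes of 0.50 and 0.31. The macrophage markers were 7.02, 6.37, 5.57 and 6.19 in mean level in NOD_Idd22 pools and 5.40, 5.19 and 5.87 in NOD-Rag1 pools, highest in the NOD_Idd22 pool in which Clec5a was also highest. The neighbours Tmem176b and Tmem176a, next to the GIMAP cluster on its distal side, overlapped between the strains, at 9.25 to 9.87 and 8.64 to 9.04 in NOD_Idd22 pools and 9.49 to 9.75 and 8.75 to 8.81 in NOD-Rag1 pools. Of 6 antiviral genes none was called, with a median of 0.06. Among them Parp12, an interferon-induced ADP-ribosyltransferase, differed by 0.33 without overlap of the pools (standard error 0.09, adjusted p = 0.314 from limma), below the fold threshold. Tnip3, which binds the NF-kB inhibitor TNFAIP3, was 3.35, 3.37, 3.27 and 3.25 in NOD_Idd22 pools and 2.83, 2.86 and 2.72 in NOD-Rag1 pools. The spread within each strain was small, and the pools did not overlap. The difference of 0.50 (standard error 0.08, adjusted p = 0.103 from limma) lay at the edge of the fold threshold.

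Genes with the largest differences lay in the stretch of trypsinogen and T cell receptor beta genes, where the choice by symbol had left them in. Gm5409, a pseudogene that RefSeq also lists as Try10l (41416910 to 41419593), was 7.97, 10.52, 9.71 and 9.16 in NOD_Idd22 pools and 4.86, 7.67 and 6.72 in NOD-Rag1 pools. Its highest NOD-Rag1 pool lay just below its lowest NOD_Idd22 pool. The difference was 2.92 (standard error 0.78, 7.58-fold, adjusted p = 0.318 from limma). 2210010C04Rik, a protein-coding gene (41030268 to 41035509), was 4.75, 8.77, 8.29 and 6.53 in NOD_Idd22 pools and 2.75, 5.43 and 4.62 in NOD-Rag1 pools, and the strains overlapped. Its difference was 2.82 over all pools, -0.27 within the first set of arrays and 5.11 within the second. Gm10334 (41442214 to 41446097) was 5.15, 5.25, 5.60 and 5.89 in NOD_Idd22 pools and 4.68, 5.0 and 4.44 in NOD-Rag1 pools, a difference of 0.77 without overlap. Gm5771, between them, was not called, at -0.28. Trypsinogen genes are near-identical copies, so probes of one may read another. The mean level of the 10 acinar markers was 7.84, 10.20, 9.44 and 8.94 in NOD_Idd22 pools and 4.24, 7.44 and 6.19 in NOD-Rag1 pools. Gm5409 and 2210010C04Rik put the pools of each strain in that same order, while Gm10334 did not. The part of exocrine cells in these differences was not tested.

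**Figure D3:**
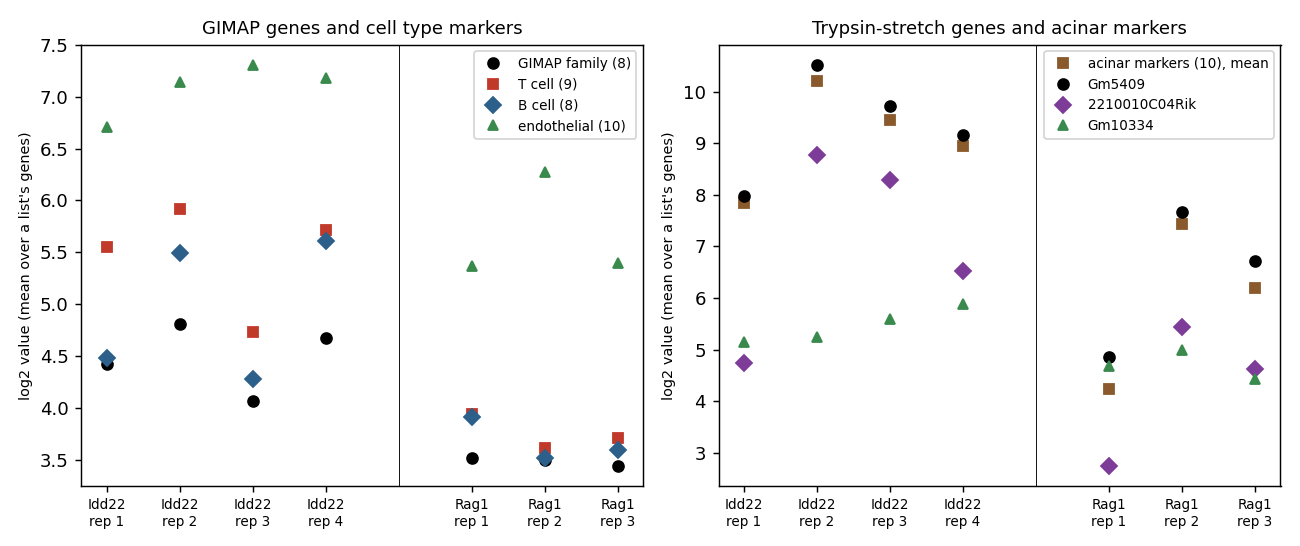
Mean log2 value of gene lists and log2 value of single genes (vertical axis) in each pool (horizontal axis), with the 4 NOD_Idd22 pools left of the line and the 3 NOD-Rag1 pools right of it. On the left the GIMAP family stands beside T cell, B cell and endothelial markers, and on the right 3 genes of the trypsinogen stretch beside the acinar markers, with Gm5409 close to the acinar mean in every pool.

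Among receptors and ligands of endocrine cells, 1 receptor was higher. Adcyap1r1, the receptor of the neuropeptide PACAP that raises cyclic AMP in beta cells (55451978 to 55501455), was 4.90, 4.79, 4.88 and 5.22 in NOD_Idd22 pools and 4.47, 4.56 and 4.22 in NOD-Rag1 pools. The pools did not overlap, and the difference was 0.53 (standard error 0.13, 1.44-fold, adjusted p = 0.288 from limma). It was 0.51 and 0.49 within the first and the second set of arrays. The call was lost without NOD-Rag1 replicate 3 or without NOD_Idd22 replicate 4, with differences from 0.43 to 0.60 over the pools left out. The other 6 of the 7 receptors were not called, among them Chrm2, a muscarinic receptor, at 0.61 with a standard error of 0.33. None of the 5 peptide ligands was called. Npy, a peptide of islet and sympathetic cells, was 7.72, 8.49, 8.54 and 8.59 in NOD_Idd22 pools and 7.73, 8.25 and 8.18 in NOD-Rag1 pools. The first NOD_Idd22 pool was at the level of the lowest NOD-Rag1 pool and the other 3 were above all of them. Tgfa, a growth factor of the EGF family, was 5.87, 5.19, 6.46 and 6.34 in NOD_Idd22 pools and 6.52, 6.50 and 6.59 in NOD-Rag1 pools. The strains did not overlap, but the difference of -0.57 (standard error 0.29, adjusted p = 0.576 from limma) did not pass the test. Rarres2, the adipokine chemerin, differed by 0.71 with overlap (standard error 0.38).

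The remaining higher genes came from several functions. Dysf, dysferlin of membrane repair, was 4.77, 5.45, 5.77 and 5.08 in NOD_Idd22 pools and 4.45, 4.39 and 4.35 in NOD-Rag1 pools, a difference of 0.87 without overlap. Vamp5, a vesicle fusion protein, was 5.25, 5.59, 5.69 and 5.60 in NOD_Idd22 pools and 4.98, 4.91 and 5.03 in NOD-Rag1 pools. Its difference was 0.56 with a standard error of 0.12, and the adjusted p from limma was 0.205 (from 0.0470 without NOD_Idd22 replicate 1 up to 0.628 with other pools left out). Ggcx, which carboxylates vitamin K-dependent proteins in the endoplasmic reticulum, was 7.94, 8.28, 8.60 and 8.63 in NOD_Idd22 pools and 7.86, 7.70 and 7.91 in NOD-Rag1 pools. The lowest NOD_Idd22 pool lay only just above the highest NOD-Rag1 pool. Ggcx was the 1 called gene of the 11 of the endoplasmic reticulum and secretory pathway, whose median was 0.05. Eif2ak3, the kinase PERK of the unfolded protein response, differed by 0.15 (standard error 0.11, adjusted p = 0.664 from limma). Aqp1, a water channel of vessel walls, was 5.04, 6.69, 5.28 and 5.79 in NOD_Idd22 pools and 5.09, 4.25 and 4.40 in NOD-Rag1 pools, and the strains overlapped. It was the 1 called gene among 7 contractile, vascular and matrix genes, and the part of the endothelial markers given above was not tested. Plxna4, a semaphorin receptor of growing axons, was the 1 called gene of 10 neuronal genes, at 0.64, with 1.21 within the first set of arrays and 0.28 within the second. n-R5s162, a copy of the 5S ribosomal RNA gene, was called at 0.96, but other copies share its sequence, so the source of its signal is uncertain.

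The lower genes were 11, and 5 of them did not overlap between the strains. Gadd45a, a stress-induced regulator of growth arrest and DNA repair (67035096 to 67037407), was 8.07, 7.17, 7.24 and 7.39 in NOD_Idd22 pools and 8.29, 8.43 and 8.13 in NOD-Rag1 pools. The first NOD_Idd22 pool was close to the NOD-Rag1 pools and the other 3 were well below them. The difference was -0.82 (standard error 0.22, 1.76-fold, adjusted p = 0.322 from limma). Without NOD_Idd22 replicate 1 it was -1.02 (adjusted p = 0.0374 from limma, up to 0.845 with other pools left out). It was -0.22 and -1.02 within the first and the second set of arrays. Lrrc61, a leucine-rich repeat protein, was 6.96, 6.20, 7.0 and 7.34 in NOD_Idd22 pools and 7.67, 7.72 and 7.76 in NOD-Rag1 pools, a difference of -0.84. Its NOD-Rag1 pools were nearly alike, and each NOD_Idd22 pool was below them.

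Pcgf1, a subunit of a Polycomb complex, was 6.66, 5.52, 6.50 and 5.96 in NOD_Idd22 pools and 6.68, 7.18 and 7.18 in NOD-Rag1 pools. Its difference of -0.85 was the lowest of the interval, and its strains were separated by the narrow gap between their replicate 1 pools. Mat2a, which makes the methyl donor S-adenosylmethionine, was 8.90, 8.07, 7.94 and 8.35 in NOD_Idd22 pools and 8.87, 9.17 and 9.0 in NOD-Rag1 pools. Here the first NOD_Idd22 pool lay within the range of NOD-Rag1, and the difference was -0.70 (standard error 0.23, adjusted p = 0.428 from limma). Rmnd5a, part of a ubiquitin ligase complex, differed by -0.54 without overlap. Atp6v0e2, a subunit of the vacuolar proton pump, Bola3, an assembly factor of iron-sulfur proteins in mitochondria, Tia1, an RNA-binding protein of stress granules, Fam221a and the pseudogene Gm8129 were lower by -0.71, -0.56, -0.53, -0.61 and -0.81 with overlap of the pools. In 9 of the 11 lower genes NOD_Idd22 replicate 1 was the highest of its strain. All 11 were negative within each set of arrays, with medians of -0.42 in the first and -0.62 in the second. The genes were chosen on these same values, so these signs are no separate support. The first set also holds a single NOD_Idd22 pool and the second a single NOD-Rag1 pool. With the array set as a block in the fit, however, 4 genes of the interval were called lower in place of 11. NOD_Idd22 replicate 1 also had the lowest mean level of beta cell markers of all 7 pools, 9.49, and the part of this in the lower genes was not tested.

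**Figure D4:**
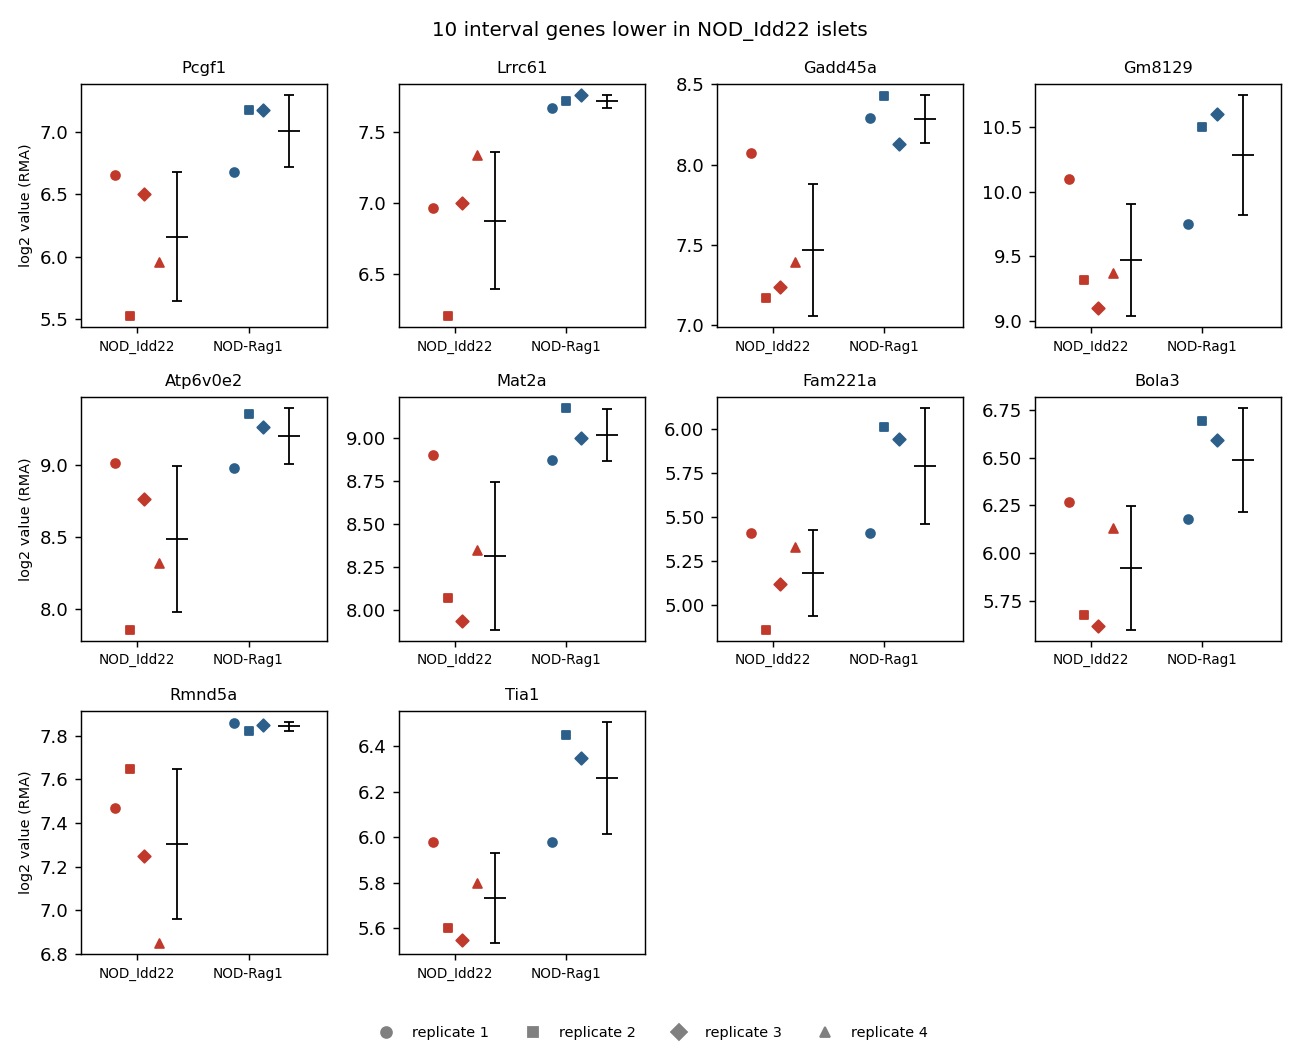
Log2 values of 10 of the 11 lower genes in each pool, NOD_Idd22 in red on the left and NOD-Rag1 in blue on the right, with a symbol per replicate number and the mean and SD as black bars, each panel on its own axis. In 8 panels the circle of NOD_Idd22 replicate 1 is the highest red point.

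Neighbouring genes moved in opposite directions at 2 places. Atp6v0e2 and Lrrc61, from 48537569 to 48570722, were lower, while 6 of the 8 genes of the GIMAP cluster that begins at 48647234 were higher. None of the 5 genes that start between them was called, and their differences ran from -0.33 (Repin1, a zinc finger protein) to 0.71 (Rarres2). At the other place Vamp5 (72368049 to 72380468) and Ggcx (72414308 to 72430712) were higher and Mat2a (72432799 to 72439558) was lower. These positions describe the order of genes only.

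Genes of mitochondria and redox defence, the functions closest to alloxan's mode of action, had 1 call among 28, near the 6.11% of all named genes. Mitochondrial ribosomal proteins and respiratory chain subunits, left out by symbol, are not in this count. Of 14 mitochondrial proteins measured, Bola3 was lower, none was higher and 13 were not called, with a median of -0.14. Chchd3, which shapes the inner membrane, differed by -0.35 (standard error 0.14, adjusted p = 0.517 from limma), and Immt, of the same complex, by -0.33. The mean level of the 14 was 6.55, 6.25, 6.20 and 6.24 in NOD_Idd22 pools and 6.34, 6.59 and 6.54 in NOD-Rag1 pools, and the strains overlapped because NOD_Idd22 replicate 1 lay among the NOD-Rag1 pools. None of 14 redox and detoxification genes was called, with a median of 0.04. Gstk1, a glutathione transferase of mitochondria and peroxisomes, differed by -0.54 (standard error 0.26, adjusted p = 0.569 from limma), and Retsat, a saturase of retinol, by -0.60 (standard error 0.39). Hpgds, a prostaglandin D synthase, was 7.64, 6.27, 5.74 and 5.66 in NOD_Idd22 pools and 6.38, 7.25 and 6.97 in NOD-Rag1 pools, so that its first NOD_Idd22 pool was above all NOD-Rag1 pools and the others below them. Of 7 metabolic enzymes, 2 were lower, Mat2a among them, and 5 were not called. Hk2, a hexokinase that adult beta cells normally keep low, was 5.75, 4.66, 4.43 and 4.50 in NOD_Idd22 pools and 4.43, 4.41 and 4.09 in NOD-Rag1 pools. Its difference was 0.52, and 0.22 without NOD_Idd22 replicate 1.

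Groups of chromatin, development and other functions had 0 or 1 call each, to be read against the 6.11% called among all named genes. Pcgf1 was the 1 called gene of 13 chromatin regulators, whose median was -0.13, and Tet3, an enzyme of DNA demethylation, differed by 0.48 with overlap (standard error 0.23). Among 13 genes of RNA processing and protein folding, Tia1 was lower and the median was -0.11. The 12 genes of the HOXA cluster, counting its neighbour Evx1, set position along the body axis and had 0 calls and a median of 0.04. None of 6 genes of kinase signalling and cell death was called, Braf at -0.26 and Casp2 at -0.12 among them. The 68 chemosensory receptor genes, the largest group, had 0 calls and a median of 0.03, with mean levels from 1.99 to 2.21 in NOD_Idd22 pools and 2.01 to 2.23 in NOD-Rag1 pools. The 3 microRNA genes on the array had 0 calls and log2 fold changes from -0.13 to 0.18. Jazf1, a zinc finger gene chosen for its role in islets, differed by -0.24 and was not called. In all, 215 of the 484 genes belonged to one of these groups, and 15 of the 28 called genes did.

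**Figure D5:**
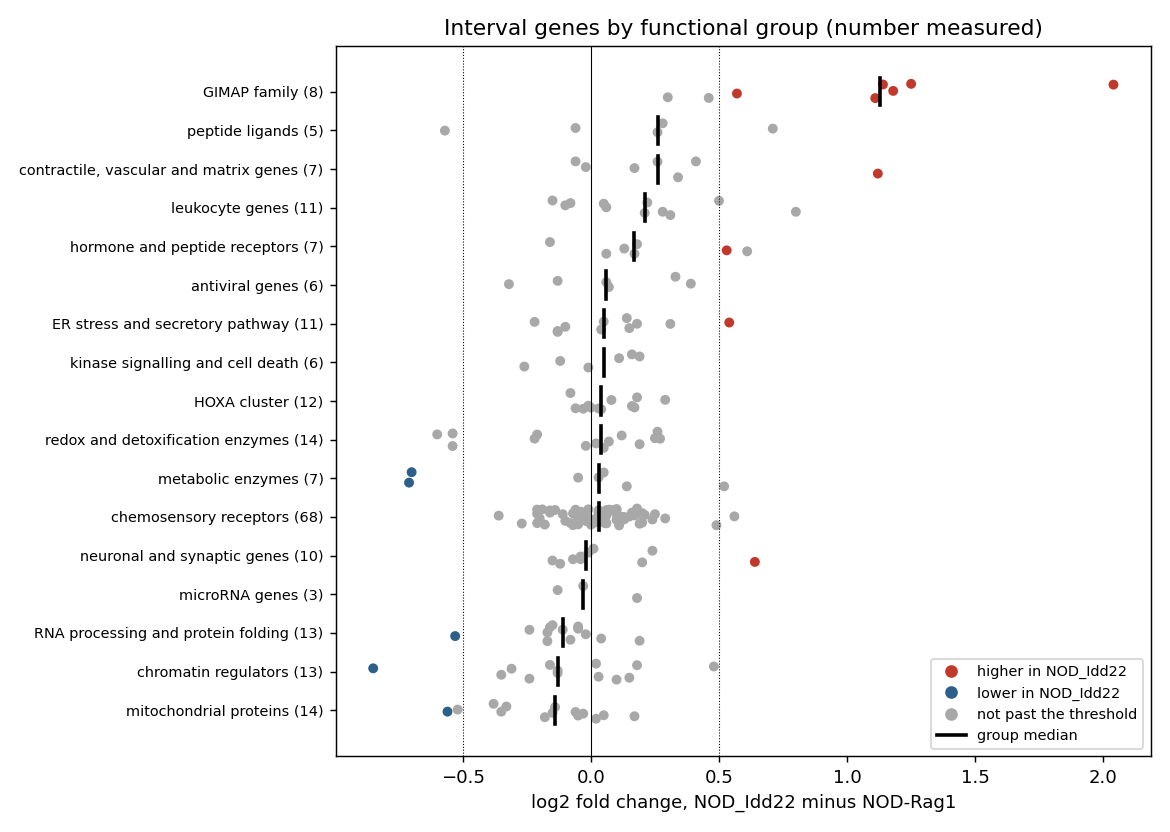
Log2 fold change (NOD_Idd22 minus NOD-Rag1, horizontal axis) of interval genes by functional group (vertical axis, with the number of genes measured). Each point is a gene, red where higher, blue where lower and grey where not called, and the black bar is the group median, which is 1.13 for the GIMAP family and between -0.14 and 0.26 for the others.

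Leaving out each pool in turn, 13 of the 28 genes were called every time. These were 10 of the 17 higher genes (Dysf, Gimap1, Gimap3, Gimap4, Gimap6, Gimap8, Gm10334, Gm5409, Vamp5 and n-R5s162) and 3 of the 11 lower genes, Gadd45a and Lrrc61 among them. The number called was 48 without NOD_Idd22 replicate 1 and 16 without NOD-Rag1 replicate 3.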

How the data were processed

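Islet RNA of 4 NOD_Idd22 and 3 NOD-Rag1 pools was hybridised to Affymetrix Mouse Gene 2.0 ST arrays. The deposited values are log2 expression values made by the authors with RMA (version not given in the sources used here). A deposited comparison table also holds the authors' fold changes (log2) and deposited p-values. Only its symbols and positions were used. The fit covered the 34351 annotated probe sets, leaving aside 121 that had no annotation. The interval bounds come from the linkage scan, in an older build, and were set on the annotation's coordinates without conversion. Of 456 members found on Chr 6 in RefSeq GRCm38, 454 overlapped their position. The comparison was fitted without a block by limma 3.58.1 (lmFit, eBayes; R 4.3.3), a fit tested on simulated data, with Benjamini-Hochberg adjustment over all tested probe sets. Counts over all named genes used the brightest probe set. Single genes were also tested by exact two-sided permutation over 35 splits. The gene lists, the interval's members and the tests were chosen with earlier results of these data known. Named were the 10 highest and 10 lowest called genes without overlap (5 were lower), up to 4 per group, 15 by role and those at the bounds. Other genes (the remaining called genes, Gimap7, Gimap9, Gm5771, Repin1, Tmem176a and Tmem176b) were named after their values were seen. Precision is set by the number of pools. A value identical to 5 decimals in 3 or more pools was found for 126 members (26.0%, against 29.0% of all named genes) and for 0 of the 28 called. Alternatives were other scalings, a filter on dim probe sets, other tests and thresholds, other probe sets, blocks and left-out pools. Plots were drawn with matplotlib 3.10.9 in Python 3.11.15. The linkage data were not analysed here, and some single genes are not reported here.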

Additional observations from a re-analysis of the deposited data

Results flagged for a closer look

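Of 99 interval genes checked for a pool far from the others in NOD_Idd22, 2 stood out, and chance alone flags about 1 in 20 such groups. Hk2 was 5.75 in NOD_Idd22 replicate 1 and 4.43 to 4.66 in the other 3 pools, at the limit of Dixon's test for 4 values. Npy was 7.72 in NOD_Idd22 replicate 1 and 8.49 to 8.59 in the other 3 pools, a gap of 0.885 of the range. Both lay in the same pool, on opposite sides.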

How the results depend on the processing

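The count of interval genes past an adjusted p of 0.05, 0 in the reported fit, was 1 (Gimap4) among 251 genes with a filter on dim probe sets, 2 (Gimap1 and Gimap4) at an adjusted p under 0.1, and 0 to 3 with each pool left out (3 without NOD_Idd22 replicate 1 and 3 without NOD_Idd22 replicate 3). The 28 genes at the fold threshold were 23 after quantile normalization and 30 (11 higher, 19 lower) after median centring. They were 8 (8 higher, 0 lower) above a log2 fold change of 1. By an unpaired equal-variance test they were 21 (14 higher, 7 lower), and 0 genes passed it after Benjamini-Hochberg. The study names an unpaired t test for single genes and does not state its form of variance. With the replicate number as a block they were 18 (4 lower), and with the array set as a block 24 (20 higher, 4 lower). Same-numbered pools deviated apart (correlations of -0.383, -0.143 and -0.108). They also lay in opposite sets of arrays, so these correlations cannot decide whether the numbers pair the pools. With each pool left out, 16 to 48 genes were called, 11 to 25 higher and 3 to 23 lower. The lowest total was without NOD-Rag1 replicate 3, the lowest number of lower genes without NOD-Rag1 replicate 2, and the highest of each without NOD_Idd22 replicate 1. Without both replicate 1 pools, a setting chosen after seeing the data, 60 were called (33 higher, 27 lower). The causes of these changes were not tested. The median of 0.01 was -0.05 after quantile normalization, -0.11 after median centring, -0.05 with the dim filter, and 0.00 to 0.03 with pools left out. Genes near 0 turned negative. Abcg2 was 0.12 in the reported fit and -0.01 after quantile normalization, -0.00 after median centring, -0.15 without both replicate 1 pools and -0.04 (without NOD-Rag1 replicate 1) to 0.24 with single pools left out. Akr1b3 (0.02) was -0.09 after quantile normalization, -0.10 after median centring and -0.07 with the array set block, and -0.08 to 0.11 with single pools left out, -0.01 among them without NOD_Idd22 replicate 3. Cycs (0.02) was -0.10 after median centring, -0.01 as the mean over probe sets, -0.04 by the least bright one, -0.24 without both replicate 1 pools, and -0.12 to 0.24 with single pools left out. Ezh2 (0.10) was -0.02 after median centring. Htra2 (0.17) was -0.25 without both replicate 1 pools, and -0.08 to 0.34 with single pools left out. The trend and robust fit and the choice of probe set moved the counts by at most 1.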
